A study of Mus musculus with 2 samples.

Results

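The miR-34 family comprises 6 of the 1265 mature miRNA probes on the array, namely mmu-miR-34a-5p, mmu-miR-34a-3p, mmu-miR-34b-5p, mmu-miR-34b-3p, mmu-miR-34c-5p and mmu-miR-34c-3p. They were taken by probe name, with no filter on signal, and the family was chosen with earlier results of these data known. The species prefix mmu is left off below. The study profiled mature miRNAs on 1 Cy5 array of embryoid bodies at day 10 of differentiation and 1 array at day 0, with total RNA from mouse embryonic stem cells. The cells were ATCC line CRL-1934 of strain 129S2/SvPas. They were grown in medium with 15% serum and moved in suspension to dishes that prevent attachment, where they aggregate into embryoid bodies. No mutation, transgene or drug is named for either day. The comparison addresses how miRNA levels at day 10 differ from those at day 0. With 1 array a day there is no replicate check and no test. Each probe was printed as 3 spots, and every SD below is over those 3 spots, so it is technical and holds nothing of the variation between cultures.

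As background, miR-34 genes are direct transcriptional targets of the tumour suppressor p53. Their 5p arms act as the main guide strands and repress genes for cell cycle entry and survival, including cyclin-dependent kinases and Bcl2. Mir34a has a transcript of its own, whereas Mir34b and Mir34c lie on a shared primary transcript. In the mouse, miR-34a is known as a barrier to reprogramming to pluripotency, and miR-34b and miR-34c are best known from testis, brain and ciliated epithelium.

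The array's target sequences are shown because they set which probes share a seed and which could hybridize to each other's target. Bases 2 to 8, the seed that pairs with target mRNAs, are in capitals, and all sequences run 5′ to 3′.
miR-34a-5p: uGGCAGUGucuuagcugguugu
miR-34b-5p: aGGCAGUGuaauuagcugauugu
miR-34c-5p: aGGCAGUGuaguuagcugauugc
miR-34a-3p: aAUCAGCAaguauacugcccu
miR-34b-3p: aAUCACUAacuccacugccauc
miR-34c-3p: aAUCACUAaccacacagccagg

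All 3 of the 5p arms carry the seed GGCAGUG. On the whole array that seed occurs in 6 probes, and the other 3 belong to the miR-449 family, whose members are known from multiciliated cells. The 3p arms of miR-34b and miR-34c share the seed AUCACUA, found in no other probe, and miR-34a-3p is the only probe with AUCAGCA. The 5p arms of miR-34b and miR-34c match at 21 of 23 bases, with the substitutions A11G and U23C counted from the 5′ end of miR-34b-5p. Their 3p arms match at 17 of 22 bases, and the substitutions U11C, C12A, U16A, U21G and C22G all lie outside the seed. For each of these 4 arms, the nearest sequence among the array's probes was the same arm of the other of these precursors. Cross-hybridization between them was not tested, so the signal of a single arm is uncertain.

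The precursors are given with both arms in capitals, to place the arms within each hairpin. Sequences and positions are from RefSeq on GRCm38.p6. Of the 6 mature members 5 were matched there by name, with the array's sequence, and miR-34c-5p was not matched by name and was placed by its array sequence.
Mir34a: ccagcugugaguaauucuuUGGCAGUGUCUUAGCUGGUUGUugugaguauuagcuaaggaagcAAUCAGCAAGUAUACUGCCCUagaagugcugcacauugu
Mir34b: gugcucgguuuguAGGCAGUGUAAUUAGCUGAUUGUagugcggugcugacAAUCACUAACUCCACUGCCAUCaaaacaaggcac
Mir34c: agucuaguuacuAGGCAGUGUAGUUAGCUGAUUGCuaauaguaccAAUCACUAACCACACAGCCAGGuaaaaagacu

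Mir34a lies at chr4:150068454-150068555 on the plus strand. Mir34b lies at chr9:51103562-51103645 and Mir34c at chr9:51103034-51103110, both on the minus strand and separated by 451 bases. Transcription on that strand passes Mir34b first.

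Signal is the median density of a spot as deposited, on a linear scale. Detection required that the median over a probe's spots pass a threshold set at the 95th percentile of 5 blank spots, 71.4 for the day 10 array and 70.0 for the day 0 array. The blank spots themselves ran from 36.2 to 71.6 on day 10 and from 36.6 to 72.7 on day 0, so the threshold is imprecise. By this measure the day 10 array detected 476 probes (37.6%) and the day 0 array 738 (58.3%). Probes detected on at least 1 array numbered 739, and their median signal was 97.9 on day 10 and 189 on day 0. The miR-290 and miR-302 probes, which mark mouse embryonic stem cells and their early derivatives, were detected for 16 of 22 on each array, with signals up to 11660 on day 10 and 13868 on day 0. After the normalization described below, the log2 difference, day 10 minus day 0, was above 0 for all 16, with a median of 0.42. Of these, 4 were called at least 2-fold higher and 0 lower, against 6.77% and 10.4% of all detected probes. Deposited signal summed over the 22 was lower on day 10 (67345 against 82553), but miR-302d-3p was brighter (471 against 162). Over the 475 probes detected on both arrays the median difference was 0.22, so as a set these markers did not fall relative to them. Below 0.22 lay miR-291a-5p (0.074) and miR-292-5p (0.097). Without normalization, miR-291a-5p (-0.78), miR-291b-5p (-0.78) and miR-294-5p (-0.79) lay below the median of all detected probes (-0.63), and the other detected markers above it. Of the probes for differentiated types, day 10 detected 2 of 4 neural, 2 of 14 muscle and heart, 0 of 2 liver and 0 of 6 blood probes, and day 0 detected 2, 2, 0 and 3 of them.

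All 6 miR-34 probes were dimmer on day 10, and for each of them all 3 day 10 spots lay below all 3 day 0 spots. This was also the case for 83.9% of the 739 detected probes, so it does not set the family apart. Day 10 detected 3 members, miR-34a-5p, miR-34b-3p and miR-34c-3p. Day 0 detected these and also miR-34a-3p and miR-34c-5p, while miR-34b-5p was detected on neither array. The log2 signal ratio, day 10 over day 0, was -1.09 for miR-34a-5p, -1.67 for miR-34b-3p and -0.51 for miR-34c-3p, against a median of -0.78 for all detected probes.

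**Figure D1:**
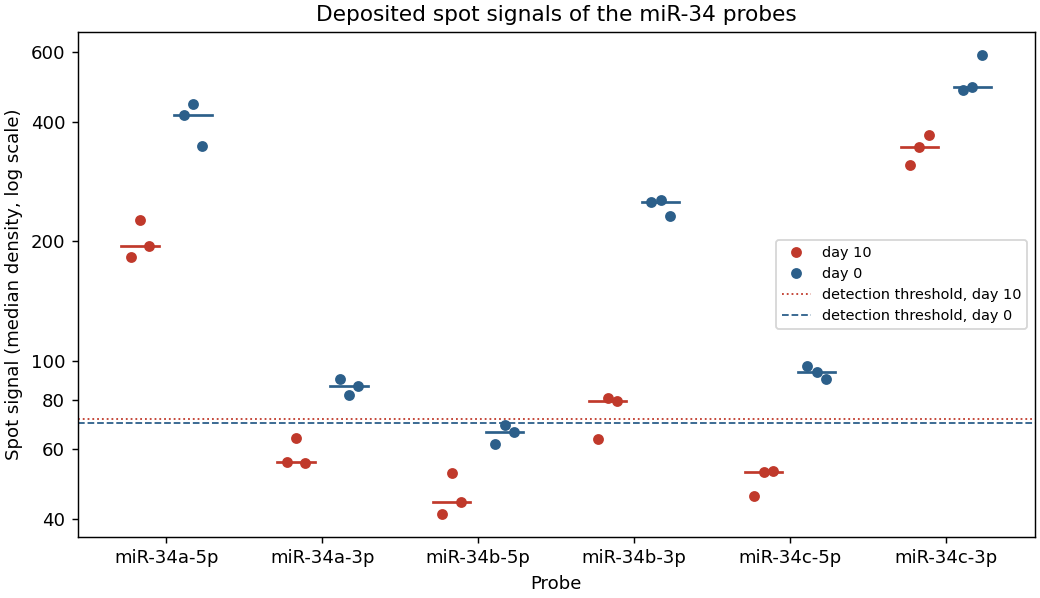
Deposited spot signal (log axis) of the 6 miR-34 probes, with 3 points per probe and array, a bar at their median, day 10 in red and day 0 in blue. Lines mark the detection thresholds of 71.4 on day 10 (dotted) and 70.0 on day 0 (dashed). Every day 10 point lies below every day 0 point of the same probe, and miR-34b-5p lies below the threshold on both arrays.

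Of the 5p arms, which carry the shared guide seed, only miR-34a-5p was detected on both arrays. Its spots read 183, 226 and 195 on day 10, against 415, 443 and 347 on day 0. As for 83.9% of detected probes, all its day 10 spots lay below its day 0 spots. The median signal was 2.13-fold lower on day 10, a log2 ratio of -1.09 against a median of -0.78 for all detected probes. miR-34c-5p, from the Mir34b and Mir34c transcript, gave 45.8, 52.6 and 52.8 on day 10, against 97.4, 93.7 and 89.9 on day 0. All 3 of its day 10 spots fell within the range of the blank spots, while its day 0 spots stood above the highest blank spot. miR-34b-5p gave 41.3, 52.2 and 44.3 on day 10, against 61.9, 69.1 and 66.5 on day 0. These signals lay within the range of the blank spots on both arrays, so its level was not measurable on either day and no fold is given.

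The 3p arms of the Mir34b and Mir34c hairpins were detected on both arrays. Signals of different probes are not comparable as amounts, so only the days of 1 probe are compared. miR-34c-3p gave 312, 345 and 370 on day 10, against 482, 490 and 588 on day 0, a median signal 1.42-fold lower on day 10. miR-34b-3p gave 63.8, 80.5 and 79.2 on day 10, against 251, 254 and 232 on day 0, a median signal 3.18-fold lower on day 10. Among the day 10 spots of miR-34b-3p, 2 of 3 exceeded the threshold, so its detection on that array was marginal. miR-34a-3p, the arm opposite the main guide, gave 55.7, 64.2 and 55.6 on day 10, against 90.1, 82.2 and 86.7 on day 0, and its day 10 spots all lay within the range of the blank spots.

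Because most probes were dimmer on day 10, signals were background-corrected and quantile normalized, which gives the arrays equal distributions. Differences below are day 10 minus day 0 in log2 of corrected signal plus 50, and they are relative to the bulk of miRNAs. The median difference of the 739 detected probes was 0.024. Among these 739 probes, 6.77% were called at least 2-fold higher on day 10 and 10.4% at least 2-fold lower, 17.2% in all. None of the 5 detected miR-34 members was called in either direction, which at that background share is not a result about the family. The split of calls over all detected probes, 50 higher and 77 lower, was 38 and 96 in the authors' values, 34 and 86 after cyclic loess and 89 and 61 when scaled to the 75th percentile. Without normalization it was 6 and 232, and it was 6 and 178 when scaled to the spike-in probes and 4 and 267 when scaled to the 5S rRNA probes. The 3 members detected on both arrays differed by -0.68, 0.15 and 0.53, against a median of 0.22 over the 475 probes detected on both. The other 2 entered only through day 0 and were at blank level on day 10, so they are left out of this summary.

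miR-34c-3p had the highest value of the family after normalization. Its level was 9.04 ± 0.13 on day 10 and 8.52 ± 0.15 on day 0 (log2, SD, n = 3 spots). The difference was 0.53 ± 0.078 (SD, n = 3 spots), a 1.44-fold higher relative level on day 10, and it was above 0 at each of the 3 spots (0.49, 0.62 and 0.47). It ranked 146th from the highest of the 739 detected probes. This sign rests on the scaling, as the difference was -0.57 when the arrays were not normalized, -0.34 when scaled to the spike-in probes and -0.71 when scaled to the 5S rRNA probes.

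miR-34b-3p had the lowest value. Its level was 6.88 ± 0.18 on day 10 and 7.56 ± 0.059 on day 0 (log2, SD, n = 3 spots). The difference was -0.68 ± 0.21 (SD, n = 3 spots), a 1.60-fold lower relative level on day 10, and all 3 spots were below 0 (-0.92, -0.60 and -0.52). It ranked 620th of 739. Its difference stayed below 0 in all 13 alternative settings that gave each probe another value, between -2.89 with the blank spots subtracted and -0.40 with 75th percentile scaling. It also passed 2-fold with the blank spots subtracted, without normalization (-1.50) and when scaled to spike-in (-1.27) or 5S rRNA (-1.64) probes. In these settings 300, 232, 178 and 267 of the 739 detected probes were called lower, in that order. The last 3 of them differ only by a constant. With the blank spots subtracted, its first day 10 spot (63.8) lay below the median blank spot (68.1) and was set to a floor of 1.

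miR-34a-5p lay close to the middle of the array. Its level was 8.31 ± 0.14 on day 10 and 8.16 ± 0.17 on day 0 (log2, SD, n = 3 spots), a difference of 0.15 ± 0.15, so the difference was no larger than its spread over spots. The spots gave -0.0061, 0.16 and 0.30, and the probe ranked 295th of 739. The sign turned with cyclic loess (-0.030), without normalization (-0.92) and when scaled to spike-in (-0.70) or 5S rRNA (-1.07) probes, the last of which passed 2-fold. With 5S rRNA scaling, 267 of the 739 detected probes were called lower. miR-34a-3p differed by 0.082 ± 0.18 and miR-34c-5p by -0.25 ± 0.17 (SD, n = 3 spots). Both were detected on day 0 alone, and their day 0 levels of 6.43 and 6.50 were below the lowest level that counted as detected on day 10 (6.75), so no fold can be given for either. The 263 probes detected on day 0 alone had a median difference of -0.18.

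**Figure D2:**
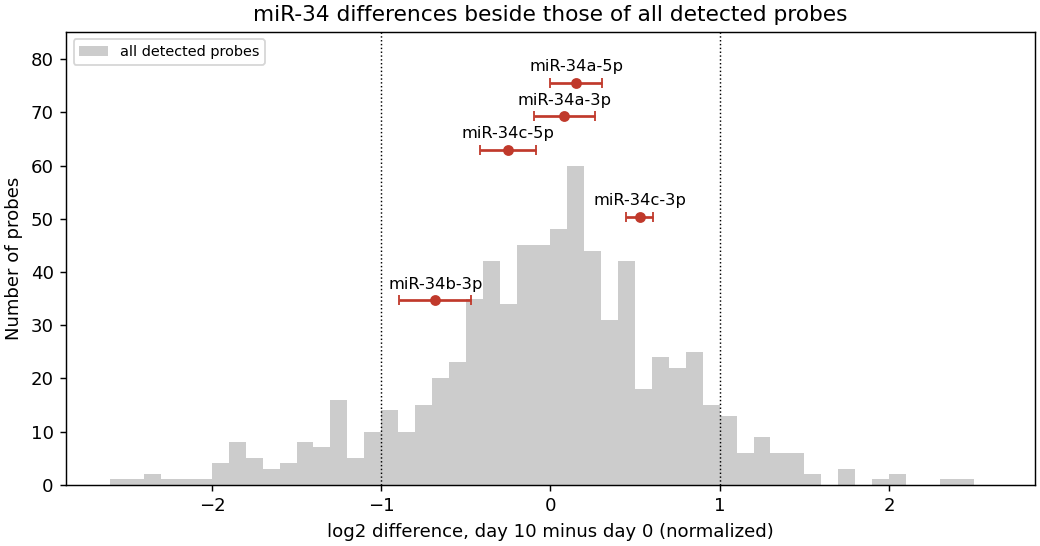
Histogram of the log2 difference, day 10 minus day 0, over the 739 detected probes, in bins of 0.1, with the 5 detected miR-34 probes above it as points at arbitrary heights. Bars are the SD over 3 spots and dotted lines mark 2-fold. All 5 points lie between the lines, from -0.68 for miR-34b-3p to 0.53 for miR-34c-3p.

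The largest spread within the family was between the 3p arms of the hairpins that share a transcript. The difference of miR-34c-3p exceeded that of miR-34b-3p by 1.21 ± 0.21 (log2, SD, n = 3 spots), with 1.41, 1.22 and 0.99 at the 3 spots. In deposited signal, with no processing, the gap in log2 ratio was 1.16. A scaling that adds 1 constant to every difference cannot change this gap, and it was above 0 in all 14 settings, from 0.93 to 3.55. The highest value came from subtracting the blank spots, where miR-34b-3p on day 10 is at the edge of detection. With the detection threshold doubled, miR-34b-3p was not detected on day 10. These settings share the same 2 arrays and are no separate checks, and whether the gap would recur in other cultures was not tested. The 5p arms of the same hairpins could not be set beside it, since miR-34b-5p was not detected and miR-34c-5p was detected on day 0 alone.

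**Figure D3:**
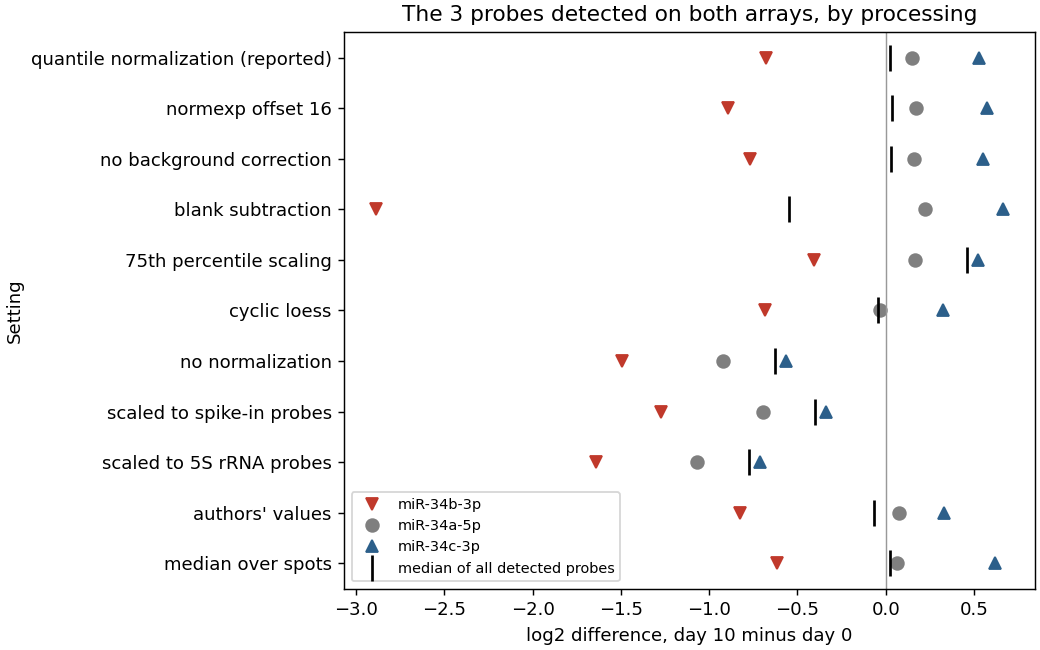
The log2 difference, day 10 minus day 0, of the 3 miR-34 probes detected on both arrays under each processing setting, with a black tick at the median of all detected probes. The points shift together with the scaling, and in each setting drawn miR-34b-3p lies lowest and miR-34c-3p highest of these probes. The widest separation, 3.55, is with blank subtraction.

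Set against the median difference over detected probes, miR-34c-3p lay above it in all 14 settings (0.062 to 1.22) and miR-34b-3p below it in all 14 (-2.34 to -0.60). No such position is read for miR-34c-5p or miR-34a-3p, which were at blank level on day 10. miR-34a-5p lay above it in 10 of 14 (-0.29 to 0.77). The 4 settings without normalization or scaled to the 75th percentile, spike-in or 5S rRNA probes differ only by a constant. They therefore give the same position by construction (0.062 for miR-34c-3p, -0.87 for miR-34b-3p and -0.29 for miR-34a-5p). In these counts, and in the order and gaps that follow, they repeat the same outcome. The order of miR-34a-5p between the 3p arms of miR-34b and miR-34c held in every setting. The gap of miR-34c-3p over miR-34a-5p was 0.25 to 0.55 and that of miR-34a-5p over miR-34b-3p was 0.57 to 3.11.

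The first spots of all 6 probes lay in column 6 of the slide, at rows 102 to 107. On the day 10 array the first spot was the dimmest of its probe for 5 of 6 members, and on the day 0 array for 2 of 6. Over all detected probes the first spot was the dimmest for 41.0% on day 10 and 37.1% on day 0. The part of spot position in the differences was not tested. Without the first spots, the difference of miR-34b-3p was -0.56 and that of miR-34c-3p was 0.54.

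**Figure D4:**
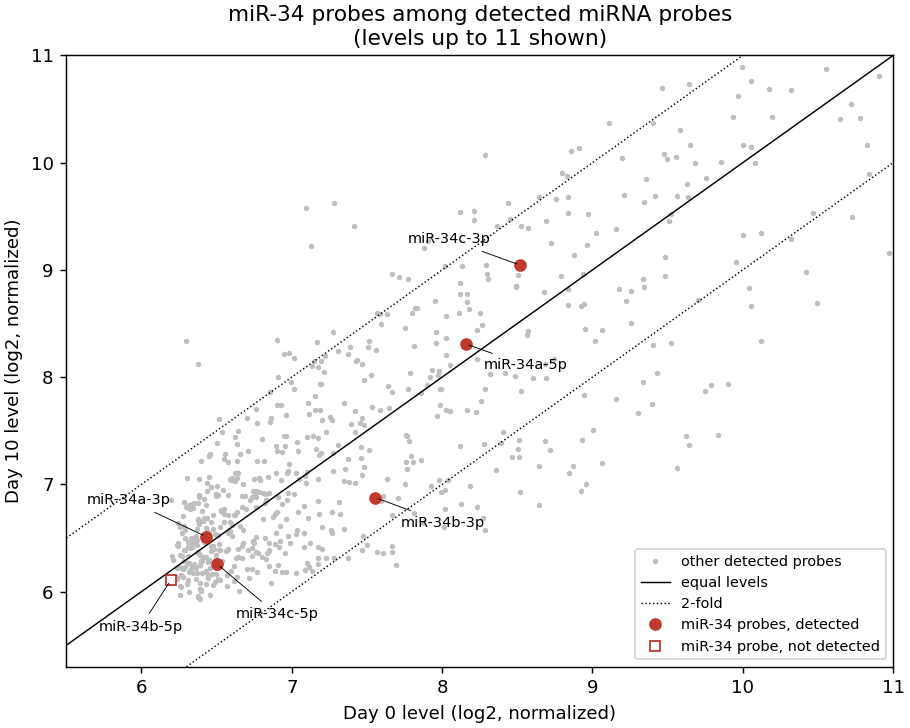
Normalized log2 level on day 10 against day 0 for detected probes with levels up to 11, with the miR-34 probes in red (open square, not detected). The solid line marks equal levels and dotted lines 2-fold. miR-34c-3p and miR-34a-5p lie above the line of equal levels, miR-34b-3p lies below it, and the other members sit in the dim cloud near levels of 6 to 6.5.

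The nearest other probes were those with the smallest Euclidean distance in the pair of normalized levels, over 2 arrays and 734 candidates. For miR-34b-3p they were miR-143-3p (distance 0.028, difference -0.69) and miR-324-3p (0.047, -0.75). For miR-34c-3p they were miR-103-3p (0.097, difference 0.45) and miR-466b-5p (0.19, 0.36). For miR-34a-5p they were miR-466a-5p (0.14, difference 0.34) and miR-466p-5p (0.15, 0.21). For the dim members, such neighbours were common. Within a distance of 0.25 there were 86 probes for miR-34a-3p, with miR-1965 and miR-496a-5p nearest, and 83 for miR-34c-5p, with miR-3081-5p and miR-874-5p nearest, against 11 for miR-34b-3p, 8 for miR-34a-5p and 6 for miR-34c-3p. With 2 arrays, this likeness is only that of 2 values.

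The miR-449 family, which shares the guide seed, was at or near the blank level. Of its 5 probes, day 10 detected none and day 0 detected 1. That probe, miR-449b, is printed because its target matches miR-34c-5p at 19 of 23 aligned bases.
miR-449b: aGGCAGUGuuguuagcuggc
miR-34c-5p: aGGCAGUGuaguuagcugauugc

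miR-449b gave 45.1, 47.6 and 45.5 on day 10, against 97.5, 93.2 and 94.5 on day 0. Its difference was -0.41, and 0.32 with 75th percentile scaling. Its day 0 level of 6.52 was also below the lowest detected level of day 10 (6.75), so no fold is given. Whether this probe and that of miR-34c-5p respond to the same RNA was not tested. The other 4 probes were miR-449a-5p (41.8 on day 10 and 50.2 on day 0, median signal), miR-449a-3p (44.7 and 53.6), miR-449c-5p (43.3 and 46.6) and miR-449c-3p (46.04 and 53.01), all within the range of the blank spots. Of the 6 probes with the GGCAGUG seed, only that of miR-34a-5p was detected on day 10.

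Other miRNAs linked to p53 by transcription or by p53-dependent processing had 19 probes, of which 14 were detected. They comprise the miR-15a and miR-16, miR-143 and miR-145, miR-192, miR-194 and miR-215, and miR-107 probes. At least 2-fold, 1 was higher on day 10 and 2 were lower, 3 of 14, a share near the 17.2% of all detected probes. Their median difference was 0.083, with 8 above 0 and 6 below, against 0.024 for all detected probes.

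The lowest values of this list belonged to the passenger arms of the miR-15a and miR-16-1 hairpins, a locus known for restraining Bcl2. miR-16-1-3p gave 93.0, 96.9 and 92.5 on day 10, against 801, 770 and 740 on day 0, a difference of -1.86 ± 0.063 (SD, n = 3 spots). miR-15a-3p gave 120, 129 and 133 on day 10, against 922, 886 and 911 on day 0, a difference of -1.64 ± 0.11 (SD, n = 3 spots). Both were called lower, and their day 10 and day 0 spots were far apart. miR-143-5p gave 67.3, 61.0 and 49.4 on day 10, where it was not detected, against 243, 242 and 202 on day 0, which is at least 1.65-fold lower.

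The 3 highest values of this list belonged to 5p arms. miR-15a-5p gave 291, 323 and 328 on day 10, against 304, 291 and 290 on day 0, a difference of 1.14 ± 0.14 (SD, n = 3 spots) and the only call higher in this list. Its deposited signals overlapped between the arrays, and without normalization its difference was 0.10. miR-194-5p differed by 0.76 ± 0.041 and miR-16-5p by 0.63 ± 0.17 (SD, n = 3 spots), but without normalization by -0.14 and -0.43. The deposited spots of miR-16-5p were all lower on day 10 (1535, 1833 and 1756) than on day 0 (2404, 2284 and 2231). In the miR-15a hairpin the guide arm was higher after normalization and the 3p arm lower on day 10. No miR-34 hairpin had both arms detected on both arrays, so their arms could not be compared in this way.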

How the data were processed

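Spot intensity was deposited by the authors as a linear median density per spot in the Cy5 channel, per the file headers. Any background subtraction or normalization of it is not given in the sources used. The authors' processed intensity per probe, also deposited, has a scale between arrays that is not given and entered as an alternative (log2 of the value plus 50). Probes follow miRBase release 19, per the series' design text.

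Spots were corrected with normexp (limma 3.58.1, R 4.3.3, offset 50, all spots in the fit), log2 transformed, stripped of controls, quantile normalized and averaged over 3 spots. The offset makes differences of dim probes smaller. Calls needed a 2-fold difference and detection on the brighter array. Where the day 10 array did not detect a probe, the fold is a bound against the lowest detected day 10 level or the probe's own, whichever is higher. The procedure was tested on simulated arrays, where recovery was checked only for probes brighter than every miR-34 probe. That check does not cover the differences reported for the family. Identities came from global alignments (Biopython 1.88). With 1 array a day no test was run, and the number of arrays limits the precision.

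All members were named, all miR-449 probes, the 3 lowest and 3 highest p53-linked probes, and 2 nearest probes per detected member. Members and lists were chosen with earlier results of these data known. Alternatives covered background correction, scaling, spots and detection.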

Additional observations from a re-analysis of the deposited data

How the results depend on the processing

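No paired analysis was possible because there is a lone array for day 10 and for day 0. The depth of signal above the blank spots limits the dim members, and scaling limits every sign but that of miR-34b-3p, which kept its direction in all alternatives. The gap between the 3p arms was chosen after seeing the data. The median over the 5 detected members, 0.082, is the value of miR-34a-3p, at blank level on day 10. It was -1.40 with blank subtraction, 0.43 with 75th percentile scaling, -0.66 with no normalization, -0.44 scaled to spike-in probes and -0.81 scaled to 5S rRNA probes, and -0.021 to 0.14 when each spot was left out in turn. Members at least 2-fold different, 0 as reported, were then 3 with blank subtraction, 1 with no normalization, 1 scaled to spike-in and 2 scaled to 5S rRNA, all of them lower. Of the 739 detected probes, 300, 232, 178 and 267 were called lower in these settings, in that order. The member counts are therefore not read as a result about the family. With blank subtraction the 3 members included miR-34a-3p (-1.40) and miR-34c-5p (-1.56). All day 10 spots of both lay below the median blank spot (68.1) and were set to a floor of 1, so no fold is read for either. The first day 10 spot of miR-34b-3p (63.8) was also set to it. A doubled detection threshold left 2 members on day 10 in place of 3, as miR-34b-3p was no longer detected there, and 3 on day 0 in place of 5.

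Probes called higher and lower, 50 and 77 as reported, were 154 and 300 with blank subtraction, 6 and 232 with no normalization, 6 and 178 scaled to spike-in and 4 and 267 scaled to 5S rRNA, and those called higher were 81 with an offset of 16 and 89 with 75th percentile scaling. For miR-449b, the only detected probe of its family, the difference of -0.41 was -0.70 with an offset of 16, -0.51 with no background correction, -1.59 with blank subtraction (1 call), 0.32 with 75th percentile scaling, -0.77 with no normalization, -0.55 scaled to spike-in, -0.92 scaled to 5S rRNA and -0.47 in the authors' values, and the median of all 5 probes with no detection filter was 0.043. With blank subtraction the day 10 spots of miR-449b were likewise set to the floor. The p53-linked median of 0.083 was -0.25 with blank subtraction, -0.80 with no normalization, -0.58 scaled to spike-in, -0.95 scaled to 5S rRNA, -0.23 in the authors' values and -0.34 with a doubled threshold. Its calls, 3 as reported, were 7, 6, 6 and 7 in the first 4 of these settings. Calls over all detected probes, given above, also rose in those settings, so the counts are not read as a result about the list. The detection settings change which probes are counted, and the cause of the other shifts was not tested.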
